A study of Mus musculus with 24 samples.

Results

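The genes described are 8 mouse genes that bring iron into cells, store it, send it out and free it from haem, across 8 cell types. They are Trf, Tfrc, Slc11a2, Slc11a1, Hmox1, Fth1, Slc40a1 and Cp. They were taken from a list of 8 gene symbols chosen for their place in iron handling, with earlier results of these data known. Counts of members called, beside the shares over all genes, are therefore a description and not a test. All 8 of 8 were measured, among 18820 genes with a probeset of their own, and each gene is represented by the brightest, by mean, of the probesets that name it alone.

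Iron circulates bound to transferrin, is taken up through the transferrin receptor and leaves the endosome through the divalent metal transporter DMT1. Macrophages also recover iron from haem of engulfed red cells, which haem oxygenase splits, and hold it in ferritin. The only known exporter of iron from mammalian cells is ferroportin, helped by ferroxidases such as ceruloplasmin, which oxidise the iron so that transferrin can bind it.

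The data are 24 Affymetrix Mouse Gene 1.0 ST arrays, whose probes lie along the exons of each gene, with 3 arrays for each of 8 cell types and 200 ng of total RNA labelled per array. The study set iPS-MG, by their label microglia derived from iPSC, beside iPSC and beside primary cells. Every value is a level on the log2 scale, so that a difference of 1 is 2-fold, and probesets of different genes are not compared in level. Array medians over all probesets ran from 7.96 to 8.21, and r between arrays of a group was 0.995 or more over genes.

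The groups differed in genotype and age as well as in cell type. Induced pluripotent stem cells (iPSC, adult by their label) carried the label C57BL/6NCr - Cx3cr1gfp/+, meaning that gfp replaced 1 copy of Cx3cr1. The same genotype was given for iPS-MG (adult by label, GFP-positive), for neonatal microglia (neo-MG, postnatal day 5) and for adult microglia (ad-MG). Macrophages of the peritoneum (p-Mac) and of bone marrow (bm-Mac) and dendritic cells (DC), all adult, were plain C57BL/6NCr, as were neural stem cells (NSC) of embryonic days 15 to 18. Per the labels' protocols, iPSC grew on inactivated embryonic fibroblasts with leukaemia inhibitory factor, cells called gMG, a name not defined there, were given M-CSF, GM-CSF and IL-3, and the others were kept in DMEM/F12 with serum. The gfp allele, age, culture and cell type cannot be told apart wherever they change together. No label tells if the 3 arrays of a type stand for different animals or cultures, so every p-value is set against the spread of these arrays alone, and that spread may be technical.

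Marker genes were set against the labels before the iron genes were read. All 7 pluripotency markers measured were highest in iPSC, all 6 peritoneal macrophage markers in p-Mac, and 4 of 6 neural stem cell markers in NSC. The mean of 8 macrophage markers lay between 11.59 and 12.52 on every array of the myeloid types and between 7.41 and 7.79 on the iPSC and NSC arrays. Of 8 microglial markers, 5 were highest in ad-MG, 1 in iPS-MG, 1 in neo-MG and 1 in bm-Mac. Their array mean was 10.68 to 10.89 in ad-MG, 10.16 to 10.19 in iPS-MG and 10.09 to 10.19 in neo-MG. It was 8.88 or less in the other groups. Cx3cr1 averaged 10.31 in neo-MG and 10.49 in bm-Mac, whereas P2ry12 averaged 10.23 and 7.75. DC stood less clearly apart: the mean of 7 dendritic cell markers was 9.81 to 9.83 in DC and 9.83 to 9.93 in bm-Mac. Of the 7, 3 were highest in DC and 4 in bm-Mac. Itgax averaged 13.19 in DC against 11.33 in bm-Mac, and Ccr7 10.28 against 9.14. Flt3, a receptor of dendritic cell precursors, averaged 7.08 against 7.80, and H2-Aa 11.29 against 12.53. All 8 fibroblast markers were highest in ad-MG, with an array mean of 11.09 to 11.24 against 8.96 or less in every other group. All 6 granulocyte markers were highest in bm-Mac, at 10.75 to 10.82 against 7.64 or less elsewhere. Sex-linked transcripts set iPS-MG apart from iPSC and beside neo-MG: Xist averaged 12.15 in iPS-MG, 12.12 in neo-MG and 9.18 in iPSC, and the Y-linked Eif2s3y averaged 10.08, 10.13 and 6.90. These values bear on whether the iPS-MG samples came from the iPSC on the arrays, which the labels do not state and which was not tested. In the other groups Xist averaged 13.18 in ad-MG, 13.22 in bm-Mac, 13.03 in p-Mac, 12.95 in NSC and 6.94 in DC, and Eif2s3y 5.01, 5.20, 5.11, 11.13 and 10.80. The sex of the cells therefore changed with most comparisons and cannot be told apart from cell type. All samples are bulk RNA, in which fewer cells of a type and less RNA per cell cannot be told apart.

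Promoter sequence was at hand for 4 members, and a pair is shown because these genes differed most in how they tracked the myeloid types: Slc11a1, which separated myeloid from stem cells, and Tfrc, which did not. The letters are from RefSeq (GRCm38.p6), 100 bases before to 20 bases after the annotated start, at chr1:74375103-74375222 for Slc11a1 and chr16:32608796-32608915 for Tfrc, both on the plus strand. Capitals in Slc11a1 mark TGANNNNGC, a looser pattern than the core of the antioxidant response element, so a match is not one to that core. Capitals in Tfrc mark ACGTG, a form of the core of the hypoxia response element. The other form, GCGTG, was not searched for and is not marked. It can be read in the Slc11a1 window too, so the marks do not set Slc11a1 and Tfrc apart in this element.
Slc11a1: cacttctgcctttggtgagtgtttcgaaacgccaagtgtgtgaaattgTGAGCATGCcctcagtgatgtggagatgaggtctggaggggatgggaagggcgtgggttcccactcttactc
Tfrc: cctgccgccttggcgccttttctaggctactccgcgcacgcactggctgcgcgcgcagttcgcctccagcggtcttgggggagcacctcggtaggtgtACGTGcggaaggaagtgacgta
Both strands were searched for both motifs, which do not overlap each other here. TGANNNNGC lay at -52 to -44 from the start of Slc11a1, and ACGTG at -2 to 3 in Tfrc. Of 32851 promoter windows of 120 bases, 19.2% held TGANNNNGC and 9.62% held ACGTG, so either match is common. The other Tfrc start and the starts given for Cp and Fth1 held neither TGANNNNGC nor ACGTG in this window, and GCGTG was not counted. A match is a description of letters, not a site shown to be used.

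The 8 genes fell into different patterns over the cell types. Slc11a1, Hmox1 and Trf were higher in every primary myeloid type than in iPSC. Slc11a2 had its lowest levels in the stem cells too, but p-Mac was only 1.68-fold above iPSC. Slc40a1 was high in some myeloid types and as low in others as in iPSC, while Tfrc and Cp followed patterns of their own. All 8 differed among the 8 cell types by the limma F test, at Benjamini-Hochberg adjusted p from 2.85e-28 to 4.70e-17, as did 96% of all genes, so sizes are given beside every call. Group means spanned 6.33 for Slc40a1, 5.31 for Slc11a1, 4.44 for Trf, 3.52 for Cp, 3.33 for Tfrc, 3.07 for Hmox1, 2.27 for Slc11a2 and 1.11 for Fth1, each between the highest and the lowest cell type. The word higher or lower is used of a difference of at least 2-fold at a limma adjusted p under 0.05, and any other difference is given as a value. Neighbours in an order of levels are said not to differ where their limma adjusted p was 0.05 or more. For the pairs of types this is said of, the share of all genes that did differ was 0.213% in iPS-MG against neo-MG, 42.3% in iPS-MG against ad-MG and 44.8% in iPS-MG against bm-Mac. It was 44.3% in neo-MG against ad-MG, 41.3% against bm-Mac, 61.4% against NSC and 72.4% against p-Mac. It was 49.6% in ad-MG against DC, 57.4% against bm-Mac and 78.2% against p-Mac, and 46.6% in DC against bm-Mac. In iPSC it was 66.1% against DC, 65.9% against NSC and 84.9% against p-Mac. Except between iPS-MG and neo-MG, a pair that does not differ in a member is thus a pair that differs in many other genes.

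**Figure D1:**
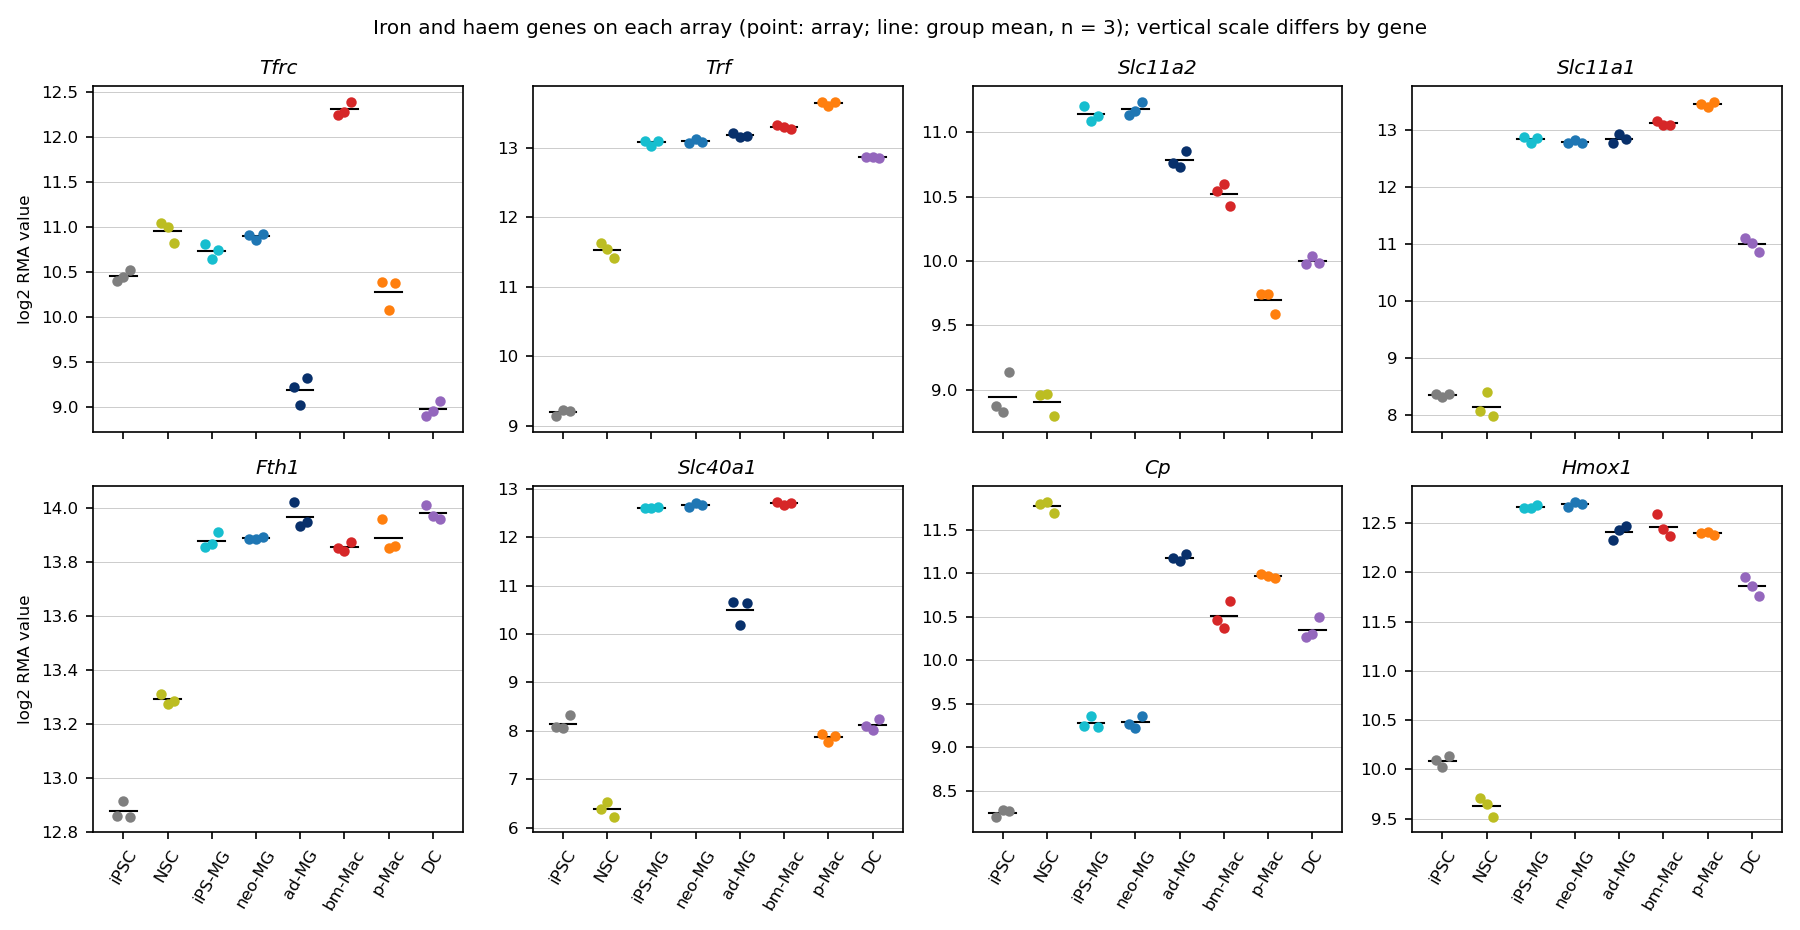
Levels of the 8 genes in each cell type, with 1 panel per gene, the log2 level on the vertical axis and the 8 cell types along the horizontal axis. Points are single arrays (3 per type), short lines are group means, and the vertical scale differs by gene. Slc40a1 stands at 12.59 or more in iPS-MG, neo-MG and bm-Mac and at 8.32 or less in iPSC, DC, NSC and p-Mac, whereas Fth1 stays between 12.86 and 14.02 throughout.

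Trf encodes transferrin, the plasma iron carrier, best known as a liver product and made in the brain by oligodendrocytes and choroid plexus. Its 3 arrays read 13.66, 13.60 and 13.66 in p-Mac and 9.14, 9.23 and 9.22 in iPSC. In NSC they read 11.64, 11.55 and 11.42, between iPSC and the myeloid types, and the arrays of these 3 types did not overlap. The other myeloid types lay between 12.86 and 13.33. In order of level, p-Mac (13.64 ± 0.037, SD, n = 3) stood first, then bm-Mac, ad-MG, neo-MG and iPS-MG, whose neighbours did not differ beyond their spread, then DC, NSC and iPSC. Trf was 21.7-fold higher in p-Mac than in iPSC. It was also 5.05-fold higher in NSC than in iPSC (a log2 difference of 2.34 ± 0.056, SE). Markers of cells that make transferrin in the brain varied gene by gene. The mean of 5 oligodendrocyte markers was 7.66 to 8.47 over all arrays. Of these, 3 were highest in p-Mac, 1 in bm-Mac and 1 in ad-MG. Cnp averaged 10.43 in iPS-MG, 10.56 in neo-MG and 10.61 in bm-Mac against 8.60 in iPSC, whereas Mobp averaged 7.47 to 7.77 over the 8 types. The mean of 6 choroid plexus markers was 6.84 to 7.55. Of these, 3 were highest in iPSC, 2 in p-Mac and 1 in iPS-MG. Ttr averaged 9.72 in iPS-MG, 9.68 in neo-MG and 8.28 in ad-MG against 6.73 in iPSC. Folr1 and Otx2 went the other way, at 7.49 and 6.84 in iPS-MG against 9.30 and 8.25 in iPSC. The part of such cells in the Trf levels was not tested.

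Tfrc encodes the transferrin receptor that takes the carrier into the cell and is high in dividing cells. Its arrays read 12.24, 12.28 and 12.39 in bm-Mac, above every other array in the set. They read 11.04, 11.00 and 10.81 in NSC, 10.90, 10.85 and 10.92 in neo-MG, and 10.81, 10.65 and 10.75 in iPS-MG. The neo-MG arrays lay within the NSC range, and the iPS-MG arrays just under those of neo-MG. The iPSC arrays followed at 10.40, 10.44 and 10.52. p-Mac lay just under iPSC at 10.39, 10.08 and 10.38, and ad-MG and DC were lowest, at 9.22, 9.02 and 9.32 and at 8.89, 8.96 and 9.07. Neighbours in this order that did not differ were NSC and neo-MG, neo-MG and iPS-MG, and iPSC and p-Mac. From DC to bm-Mac Tfrc spanned 10.1-fold. A list of 11 cell cycle genes is given beside Tfrc because dividing cells need iron. Its array mean was 11.93 to 11.98 in iPSC, 11.60 to 11.65 in NSC, 10.36 to 10.38 in bm-Mac, 10.34 to 10.36 in neo-MG, 9.70 to 10.14 in ad-MG, 8.44 to 8.52 in DC and 7.57 to 7.66 in p-Mac. The highest cell cycle mean was in iPSC and the highest Tfrc in bm-Mac. The lowest cell cycle mean was in p-Mac and the lowest Tfrc in DC. The part of cell division in the Tfrc levels was not tested.

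**Figure D2:**
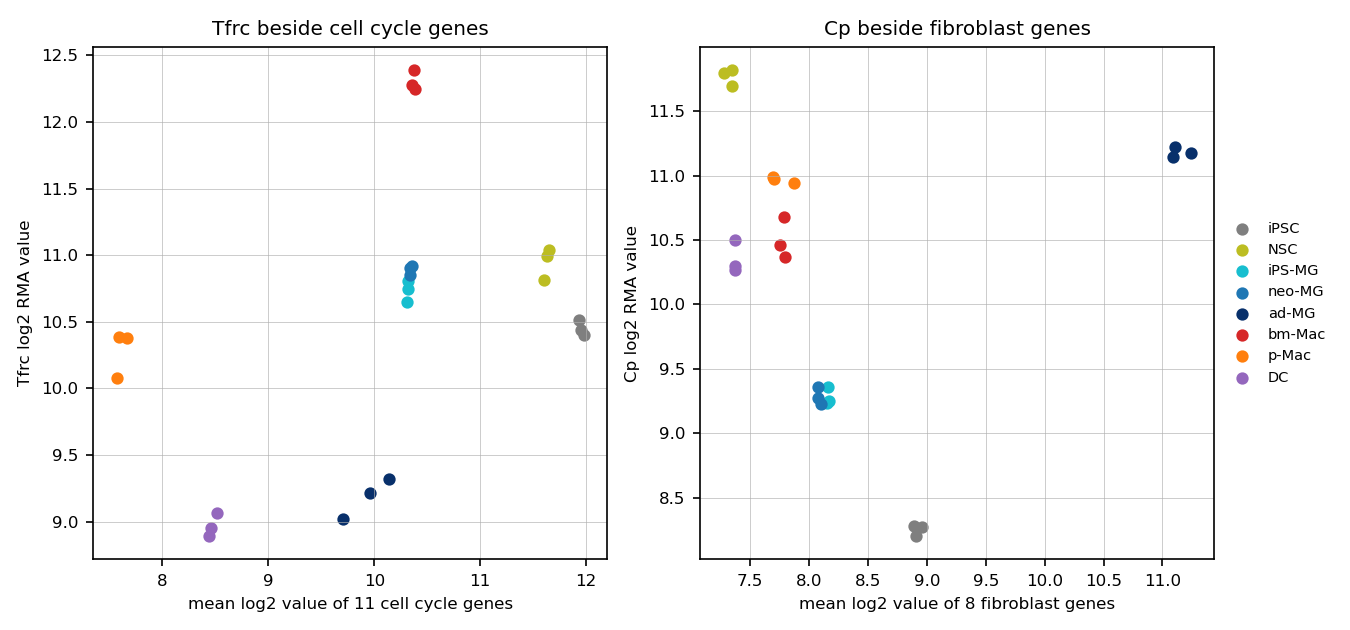
Tfrc level against the array mean of 11 cell cycle genes (left) and Cp level against the array mean of 8 fibroblast markers (right), both on log2 scales, with 1 point per array coloured by cell type. The bm-Mac arrays lie highest in Tfrc, at 12.24 to 12.39, beside a cell cycle mean of 10.36 to 10.38 that neo-MG nearly shares, and the ad-MG arrays lie farthest right in the Cp panel, at a fibroblast mean of 11.09 to 11.24.

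Slc11a2 encodes DMT1, which moves ferrous iron out of the endosome. Its arrays read 11.14, 11.17 and 11.24 in neo-MG and 11.20, 11.09 and 11.12 in iPS-MG, the highest of the set. They read 10.76, 10.73 and 10.85 in ad-MG, 10.54, 10.60 and 10.42 in bm-Mac, 9.98, 10.04 and 9.99 in DC, and 9.75, 9.75 and 9.59 in p-Mac. iPSC (8.87, 8.83 and 9.14) and NSC (8.96, 8.96 and 8.79) overlapped below all of these. Only neo-MG and iPS-MG, and iPSC and NSC, were neighbours that did not differ. The span from neo-MG to NSC was 4.84-fold, and the 3 microglial types had the highest means.

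Slc11a1 encodes NRAMP1, the metal transporter of the phagosome membrane, which is a macrophage gene. The p-Mac arrays read 13.46, 13.41 and 13.50, and bm-Mac arrays 13.17, 13.10 and 13.10. The 3 microglial types lay together between 12.77 and 12.93 and their neighbours did not differ. DC stood apart at 11.11, 11.03 and 10.86, between the macrophages and the stem cells. The stem cells read 8.37, 8.32 and 8.37 in iPSC and 8.06, 8.40 and 7.98 in NSC, and the 2 groups overlapped. From NSC to p-Mac Slc11a1 spanned 39.7-fold.

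Hmox1 encodes haem oxygenase 1, the inducible enzyme that splits haem into iron, biliverdin and carbon monoxide. Its arrays read 12.67, 12.71 and 12.70 in neo-MG and 12.65, 12.65 and 12.69 in iPS-MG. bm-Mac (12.59, 12.44 and 12.37), ad-MG (12.33, 12.43 and 12.47) and p-Mac (12.40, 12.41 and 12.38) overlapped, and neighbours among these did not differ. DC came next, at 11.95, 11.86 and 11.77, and the stem cells lowest, at 10.10, 10.03 and 10.14 in iPSC and 9.71, 9.64 and 9.52 in NSC. The span was 8.41-fold, and no comparison of 2 myeloid types reached 2-fold: the widest tested against neo-MG was 0.83 ± 0.064 (SE), with DC.

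Fth1 encodes ferritin heavy chain, which oxidises and stores iron. It was the flattest of the 8, with 13.84 to 14.02 on every myeloid array, 13.31, 13.27 and 13.29 in NSC and 12.86, 12.92 and 12.86 in iPSC. The 6 myeloid types stood in the order DC, ad-MG, p-Mac, neo-MG, iPS-MG and bm-Mac, and no neighbours among them differed beyond their spread. On this probeset, whose levels lie near the highest value in the set (14.43), DC exceeded iPSC by 2.15-fold. Ferritin is known to be controlled in large part at translation, which arrays do not read. A second single-gene probeset of Fth1 had array values of 8.78 to 11.22 and a DC mean 4.02-fold above that of iPSC, so the size of the span depends on the probeset.

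Slc40a1, the ferroportin gene, had the widest range. Its arrays read 12.73, 12.67 and 12.71 in bm-Mac, 12.63, 12.70 and 12.66 in neo-MG, and 12.59, 12.60 and 12.62 in iPS-MG. These 3 types were neighbours that did not differ. ad-MG stood by itself at 10.65, 10.19 and 10.64. Far below, iPSC read 8.07, 8.06 and 8.32, DC 8.09, 8.02 and 8.23, and p-Mac 7.93, 7.77 and 7.90, while NSC was lowest at 6.38, 6.52 and 6.22. iPSC and DC did not differ. The span from NSC to bm-Mac was 80.4-fold, and the 2 kinds of macrophage, bm-Mac and p-Mac, took places near opposite ends of the order.

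Cp encodes ceruloplasmin, the copper ferroxidase that works with ferroportin, known in the brain from astrocytes. It ran in another order. NSC were highest at 11.80, 11.82 and 11.70, then ad-MG at 11.17, 11.15 and 11.22 and p-Mac at 10.99, 10.97 and 10.94. bm-Mac (10.46, 10.37 and 10.68) and DC (10.26, 10.30 and 10.50) overlapped and did not differ. neo-MG (9.27, 9.23 and 9.36) and iPS-MG (9.25, 9.36 and 9.23) overlapped and did not differ either, and iPSC were lowest at 8.20, 8.28 and 8.27. From iPSC to NSC Cp spanned 11.5-fold. Among the myeloid types, neo-MG and iPS-MG were thus lowest in Cp while near the top in Slc40a1. Of 6 astrocyte markers, 2 were highest in NSC, 2 in iPS-MG, 1 in neo-MG, 1 in iPSC and 0 in ad-MG. Slc1a3 averaged 12.64 in NSC, 8.48 in ad-MG and 8.28 in neo-MG. Gja1 averaged 6.66, 11.00 and 8.07 in the same order, and Gfap 7.45, 7.93 and 9.02. The part of astrocyte RNA in the Cp levels was not tested.

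The first comparison set iPS-MG, by their label derived from stem cells, against the iPSC arrays. The sex-linked transcripts given with the markers differed between these groups. Relative to iPSC, iPS-MG had higher Slc11a1 (4.49 ± 0.080, SE), Slc40a1 (4.46 ± 0.097), Trf (3.88 ± 0.056), Hmox1 (2.58 ± 0.064), Slc11a2 (2.19 ± 0.074), Cp (1.03 ± 0.072) and Fth1 (1.00 ± 0.050). Tfrc differed by 0.28 ± 0.084, less than 2-fold. Thus 7 of 8 genes were higher and 0 lower, where 22.2% of all genes were called in either direction and 10.4% higher and 11.8% lower. The arrays of the 2 groups did not overlap for any of the 8, Tfrc included. In this pair 64.5% of all genes differed at a limma adjusted p under 0.05. The share of all genes without overlap was not counted. The calls of Cp and Fth1 sit at the 2-fold limit: Cp was at 0.99 without iPS-MG replicate 2, and Fth1 at 0.98 to 0.99 without iPSC replicate 1, iPSC replicate 3 or iPS-MG replicate 3.

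Primary neonatal microglia gave a like picture against iPSC, with 7 genes higher and 0 lower beside 22% of all genes called in either direction. These comparisons share the iPSC arrays, so their likeness is not independent. Directly against neo-MG, iPS-MG showed 0 of 8 genes called, 0 at an adjusted p under 0.05 and 0 at an unadjusted p under 0.05 in limma. Of all genes 0.0266% were called, and 1225 of 18820 had an unadjusted p under 0.05. At such shares few genes of any list pass. The widest difference was in Tfrc, at -0.16 ± 0.084 (SE) with limma adjusted p = 0.778, and the other 7 lay between -0.06 and 0.04. The sex-linked transcripts that set iPS-MG beside neo-MG rather than iPSC were given with the markers, and their part in this was not tested.

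Neonatal and adult microglia differed in ferroportin, the transferrin receptor and ceruloplasmin. Slc40a1 was 4.50-fold higher in neo-MG (2.17 ± 0.097, SE, limma adjusted p = 5.38e-16) and Tfrc 3.26-fold higher (1.71 ± 0.084). Cp was 3.72-fold lower in neo-MG (-1.90 ± 0.072). These 3 of 8 were called, beside 5.71% of all genes (1.28% higher and 4.43% lower). The other 5 differed by -0.09 to 0.40: Slc11a2 by 0.40 ± 0.074, Hmox1 by 0.28 ± 0.064, Slc11a1 by -0.05 ± 0.080, Fth1 by -0.08 ± 0.050 and Trf by -0.09 ± 0.056. Centring each array on its median turned the sign of the last 3, none of which passed the test.

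The ad-MG arrays carried other cells' markers beside these 3 genes. All 8 fibroblast markers were highest there, and their array mean was 11.09 to 11.24 against 8.07 to 8.10 in neo-MG. Collagen Col1a1 averaged 12.38 against 9.62, and decorin (Dcn) 12.66 against 9.53. The mean of 8 endothelial and mural markers was 8.64 to 8.83 against 7.59 to 7.63. The mean of 8 macrophage markers was 12.16 to 12.26 in ad-MG and 12.30 to 12.35 in neo-MG, and that of 8 microglial markers 10.68 to 10.89 and 10.09 to 10.19. The Cp of p-Mac, 10.94 to 10.99, was also above neo-MG, at a fibroblast marker mean of 7.69 to 7.87. A level in p-Mac does not tell the source of Cp in ad-MG. The part of fibroblast and vessel RNA in the Slc40a1, Tfrc and Cp differences between neo-MG and ad-MG was not tested.

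Against bone marrow macrophages, neo-MG did not differ in Slc40a1 beyond the spread (-0.04 ± 0.097, SE) and had lower Tfrc and Cp. Tfrc was 2.66-fold lower (-1.41 ± 0.084, limma adjusted p = 2.53e-13) and Cp 2.33-fold lower (-1.22 ± 0.072). The 2 genes of 8 stood beside 5.23% of all genes called (2.1% higher and 3.12% lower). The other differences ran from -0.33 ± 0.080 for Slc11a1 to 0.66 ± 0.074 for Slc11a2. Granulocyte genes moved with the bm-Mac label: all 6 markers were highest in bm-Mac, at a mean of 10.75 to 10.82 against 6.90 to 6.98 in neo-MG, with Ngp, a neutrophil granule protein, at 12.53 against 5.85. Their part in the Tfrc and Cp levels of bm-Mac was not tested.

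Against peritoneal macrophages, neo-MG had far more Slc40a1. The difference was 27.8-fold (4.80 ± 0.097, SE, limma adjusted p = 4.00e-23). Slc11a2 was 2.80-fold higher (1.49 ± 0.074) and Cp 3.20-fold lower (-1.68 ± 0.072). The 3 genes called of 8 stood beside 9.12% of all genes (6.02% higher and 3.1% lower). Slc11a1 (-0.66 ± 0.080), Trf (-0.55 ± 0.056), Tfrc (0.61 ± 0.084) and Hmox1 (0.30 ± 0.064) differed by less than 2-fold, and Fth1 by less than 0.01.

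Against dendritic cells, neo-MG was higher in 4 genes and lower in 1. Slc40a1 was 23.4-fold higher (4.55 ± 0.097, SE), Tfrc 3.78-fold higher (1.92 ± 0.084), Slc11a1 3.48-fold higher (1.80 ± 0.080) and Slc11a2 2.27-fold higher (1.18 ± 0.074). Cp was 2.10-fold lower (-1.07 ± 0.072), and without DC replicate 3 it was at -0.99, short of 2-fold. The 5 genes called of 8 stood beside 8.12% of all genes (4.17% higher and 3.96% lower). Hmox1 differed by 0.83 ± 0.064, Trf by 0.23 ± 0.056 and Fth1 by -0.09 ± 0.050. The neo-MG arrays enter all of these comparisons, which therefore are not independent of each other.

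**Figure D3:**
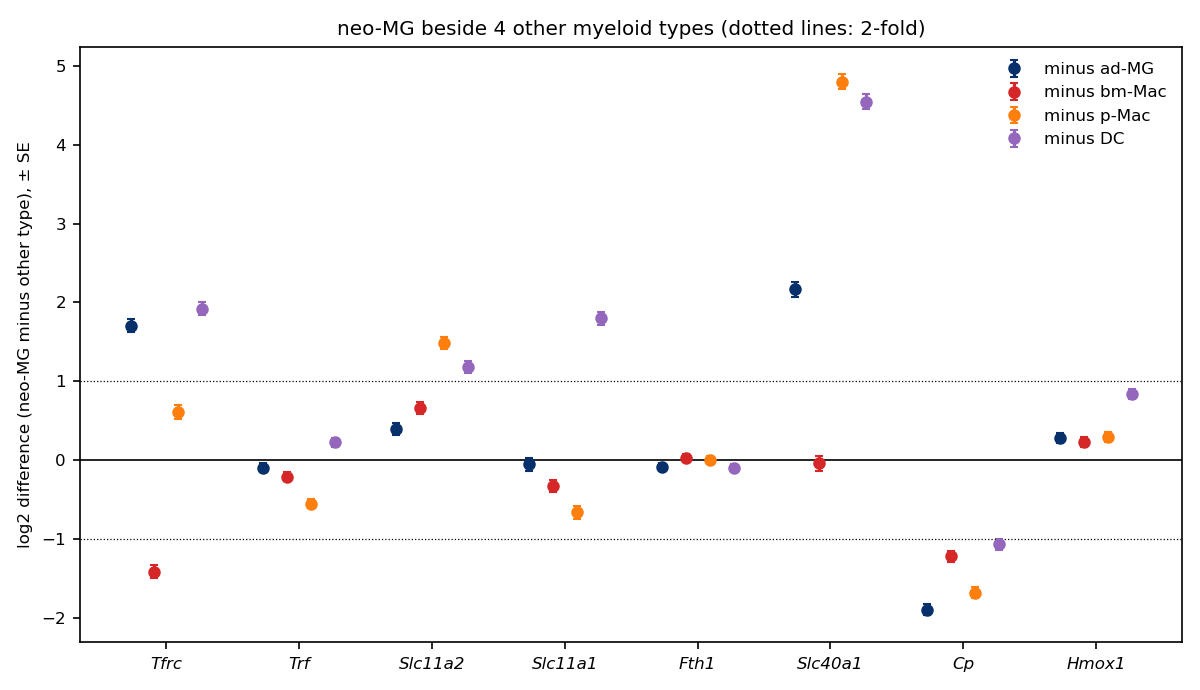
Log2 difference of neo-MG against ad-MG, bm-Mac, p-Mac and DC for each of the 8 genes, with bars for the SE of limma's fit and dotted lines at 2-fold. Slc40a1 runs from -0.04 against bm-Mac to 4.80 against p-Mac, and Cp lies at -1.07 or lower in all 4 comparisons.

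The macrophages and dendritic cells were also set against each other. p-Mac had 28.6-fold lower Slc40a1 than bm-Mac (-4.84 ± 0.097, SE, limma adjusted p = 7.30e-23) and 4.06-fold lower Tfrc (-2.02 ± 0.084). The 2 genes of 8 stood beside 6.17% of all genes called (1.73% higher and 4.44% lower). The other 6 differed by less than 2-fold, from -0.83 ± 0.074 for Slc11a2 to 0.46 ± 0.072 for Cp. DC had 24.0-fold lower Slc40a1 than bm-Mac (-4.59 ± 0.097), 10.1-fold lower Tfrc (-3.33 ± 0.084) and 4.36-fold lower Slc11a1 (-2.12 ± 0.080). These 3 of 8 stood beside 8.08% of all genes (3.41% higher and 4.67% lower), and the remaining 5 differed by 0.61 or less in either direction. Of the 11 cell cycle genes, 11 were lower in p-Mac than in bm-Mac (median -2.78) and 11 in DC than in bm-Mac (median -1.84). In neo-MG against bm-Mac 0 of 11 were called by limma (median -0.07), where Tfrc differed by -1.41. Against ad-MG 0 of 11 were called (median 0.42), with Tfrc at 1.71. Against p-Mac and DC 10 of 11 were higher in neo-MG (medians 2.71 and 2.03), with Tfrc at 0.61 and 1.92. The part of the cell cycle list in these Tfrc differences was not tested.

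The 2 stem cell types differed from each other in carrier and export genes. NSC had 11.5-fold higher Cp (3.52 ± 0.072, SE, limma adjusted p = 9.90e-24) and 5.05-fold higher Trf than iPSC. Slc40a1 was 3.43-fold lower in NSC (-1.78 ± 0.097). The 3 genes called of 8 stood beside 17.2% of all genes (7.25% higher and 9.97% lower). Tfrc (0.50 ± 0.084), Fth1 (0.41 ± 0.050), Hmox1 (-0.47 ± 0.064), Slc11a1 (-0.21 ± 0.080) and Slc11a2 (-0.04 ± 0.074) differed by less than 2-fold.

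Averaged over the 5 primary myeloid types (neo-MG, ad-MG, bm-Mac, p-Mac and DC) and set against the mean of iPSC and NSC, 5 of 8 genes were higher and 0 lower, beside 18.9% of all genes called (9.77% higher and 9.14% lower). Slc11a1 was 21.1-fold higher (4.40 ± 0.047, SE), Slc40a1 8.62-fold (3.11 ± 0.057), Trf 7.21-fold (2.85 ± 0.033), Hmox1 5.70-fold (2.51 ± 0.038) and Slc11a2 2.85-fold (1.51 ± 0.044). The Slc40a1 value is a mean over unlike groups, since the arrays of DC overlapped those of iPSC and the arrays of p-Mac lay under them. Fth1 (0.83 ± 0.029), Cp (0.45 ± 0.043) and Tfrc (-0.37 ± 0.050) stayed under 2-fold.

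The wider pathway was described with 8 lists of other iron and haem genes, 68 of which were measured. In iPS-MG against iPSC, 14 of the 68 were higher and 5 lower (median 0.16), beside 10.4% of all genes higher, 11.8% lower and a median of 0.02. In iPS-MG against neo-MG, 0 of the 68 were called by limma and 6 had an unadjusted p under 0.05, beside 5 and 1225 of 18820 genes. The median of the 68 was 0.01, beside -0.01 for all genes. In the primary myeloid types against the stem cells, 16 were higher and 2 lower (median 0.22), beside 9.77% of all genes higher, 9.14% lower and a median of 0.04.

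Genes that take up, move and break down haem were the list with the most higher genes in both comparisons with stem cells. Of its 11 genes, 6 were higher in the myeloid types than in the stem cells and 0 lower, with a median of 1.42, beside 9.77% of all genes higher, 9.14% lower and a median of 0.04. Lrp1, a receptor that takes up haem bound to haemopexin, differed by 2.44 ± 0.034 (SE), and Slc48a1, which carries haem out of the phagosome, by 1.91 ± 0.047. In iPS-MG against iPSC 6 were higher and 1 lower, beside 10.4% and 11.8% of all genes: the haem exporter Flvcr1 was higher by 2.72 ± 0.063 and Blvra, the biliverdin reductase that acts after haem oxygenase, by 2.63 ± 0.085, while Flvcr2 was lower (-1.88 ± 0.086). Blvra was also higher in neo-MG than in ad-MG (1.13 ± 0.085) and DC (1.61 ± 0.085). Slc46a1, a folate transporter that was first described as a haem carrier, was higher in neo-MG than in bm-Mac (1.50 ± 0.076), p-Mac (2.06 ± 0.076) and DC (2.20 ± 0.076). The haemoglobin-binding genes ran the other way. Hp, haptoglobin, averaged 11.73 in p-Mac and 9.76 in bm-Mac against 7.18 in neo-MG, and Cd163, the haptoglobin-haemoglobin receptor, 8.15 and 8.21 against 6.95. Neo-MG was lower in Hp than p-Mac (-4.55 ± 0.12) and bm-Mac (-2.58 ± 0.12).

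Of 12 genes of iron uptake and reduction, 3 were higher and 2 lower in iPS-MG than in iPSC, beside 10.4% and 11.8% of all genes. Slc39a8, a zinc and iron importer also called ZIP8, was higher by 2.91 ± 0.082 (SE) and Steap3, the endosomal ferrireductase, by 1.76 ± 0.079, and Steap2, another reductase, was lower (-2.94 ± 0.097). Slc39a8 was at its highest in neo-MG and in iPS-MG, the group whose sex-linked transcripts lay near neo-MG. It averaged 10.28 in neo-MG and 10.20 in iPS-MG against 9.04 in ad-MG, 8.88 in DC, 8.79 in bm-Mac and 8.02 in p-Mac, and neo-MG was higher than each of these last 4, by 1.24, 1.40, 1.50 and 2.26. Against ad-MG, 1 gene of this list was higher in neo-MG and 4 lower, beside 1.28% and 4.43% of all genes, among them Steap2 (-3.27 ± 0.097) and Lcn2, lipocalin 2, which binds iron-loaded siderophores (-1.50 ± 0.10). Steap2 and Lcn2 stood beside the fibroblast markers of ad-MG, and their source was not tested. Against bm-Mac, neo-MG was lower in Ltf, lactoferrin (-4.66 ± 0.076), and Lcn2 (-2.93 ± 0.10). Both are also known as neutrophil granule genes, and all 6 granulocyte markers were highest in bm-Mac. Lcn2 averaged 13.34 in bm-Mac, and also 11.91 in ad-MG, where the granulocyte marker mean was 6.80. The source of Ltf and Lcn2 in bm-Mac was not tested.

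The lists of storage, sensing, mitochondrial iron and haem synthesis held 4 to 9 genes, too few to set a low count of calls against the shares over all genes. Of 4 measured genes of ferritin and iron chaperones, 1 was higher in iPS-MG than in iPSC, beside 10.4% of all genes. It was Ncoa4, the receptor that delivers ferritin for breakdown, by 1.06 ± 0.056 (SE). In the 6 comparisons between primary myeloid types 0 of these 4 were called by limma, beside 5.23% to 9.12% of all genes. There 1 to 4 were at an unadjusted p under 0.05, beside 8875 to 14066 of 18820 genes. Of 4 iron sensing genes, Epas1, which encodes the hypoxia factor HIF-2 alpha, was lower in neo-MG than in p-Mac (-2.56 ± 0.078). Against ad-MG, bm-Mac or DC 0 were called by limma. In each of these 3 were at an unadjusted p under 0.05, beside 8875 to 9555 of 18820 genes. Of 9 genes of mitochondrial iron and iron-sulphur assembly, 2 were higher and 1 lower in neo-MG than in p-Mac (median 0.69 beside -0.14 for all genes), where 9.12% of all genes were called. Glrx5, a glutaredoxin of iron-sulphur assembly, was higher by 1.61 ± 0.099 and Bola3, another assembly factor, by 1.01 ± 0.085, and Slc25a37, mitoferrin 1, was lower (-1.90 ± 0.066). Slc25a37 was also lower in neo-MG than in ad-MG (-1.54 ± 0.066) and bm-Mac (-1.03 ± 0.066). Of 8 genes of haem synthesis, Alas1, its first enzyme in most cells, was higher in iPS-MG than in iPSC (1.88 ± 0.068) and Cpox lower (-1.23 ± 0.057). In the 4 comparisons of neo-MG with other primary myeloid types 0 were called by limma. There 3 to 6 were at an unadjusted p under 0.05, beside 8875 to 14066 of 18820 genes.

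The hepcidin axis controls ferroportin protein from outside the cell. Of its 9 genes 1 was called in iPS-MG against iPSC, beside 22.2% of all genes, and 1 in neo-MG against ad-MG, beside 5.71%. Hfe, which takes part in iron sensing and is mutated in haemochromatosis, was higher in iPS-MG than in iPSC (2.93 ± 0.12, SE), and Bmp6, a signal for hepcidin, was lower in neo-MG than in ad-MG (-1.68 ± 0.088). Hamp, hepcidin itself, averaged between 5.18 and 5.82 in all 8 types. Of 11 genes of the BACH1 and NRF2 axis, which controls Hmox1 among others, 2 were higher and 1 lower in iPS-MG than in iPSC, beside 10.4% and 11.8% of all genes. Slc7a11, the cystine importer, was higher there by 2.77 ± 0.094, and Nqo1, a quinone reductase, lower (-3.21 ± 0.091). Slc7a11 was lower in neo-MG than in ad-MG, p-Mac and DC (-1.27, -1.15 and -2.43). Spic, which red pulp and bone marrow macrophages that recycle red cells need, averaged 10.38 in bm-Mac and 8.60 in p-Mac against 6.48 in neo-MG, and neo-MG was lower than both (-3.90 ± 0.099 and -2.13 ± 0.099).

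**Figure D4:**
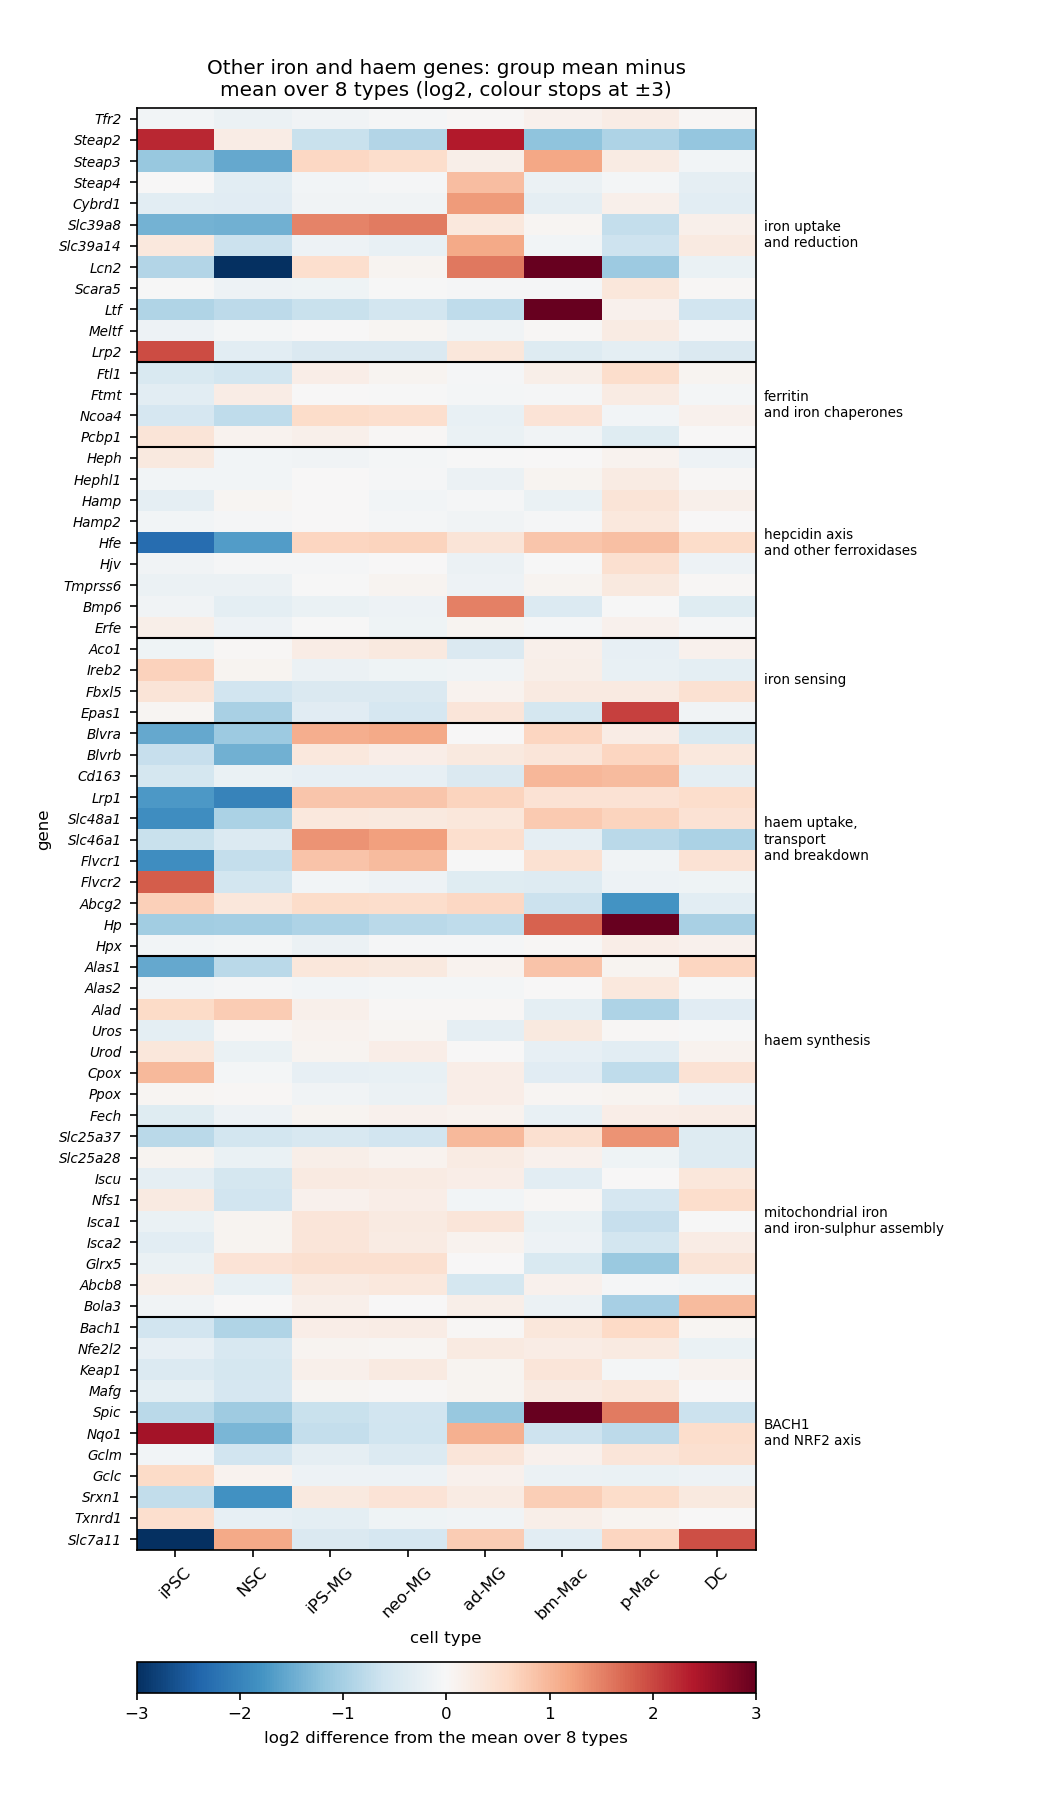
Group mean minus the mean over the 8 cell types for the 68 measured genes of the 8 iron and haem lists, on the log2 scale, with 1 row per gene, 1 column per cell type and colours that stop at 3 in either direction. The iPS-MG and neo-MG columns look alike, and Ltf and Spic stand out in bm-Mac.

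The genes whose levels most resembled each member were found by Pearson's r over the 24 arrays, among 8881 genes whose group means span at least 1. The 24 arrays are 8 groups of 3, so that r mostly describes 8 group means and carries no test. Slc40a1 was most like Ifit1 (r = 0.980), Gnptab (0.971) and Ifi205 (0.969). Slc11a1 was most like Ly86 (0.993), Gpr65 (0.993) and Irf8 (0.991), and Hmox1 like Vav1, Ifi207 and P2ry6 (each 0.995). Slc11a2 was most like Gpr137b (0.984), Cd83 (0.983) and Sumf1 (0.982), Trf like Ifngr1 (0.994), Nfatc1 (0.992) and Rgs2 (0.992), and Fth1 like Grina (0.988), Smpdl3a (0.986) and Runx1 (0.984). Tfrc and Cp had the loosest matches: Dck (0.917), Nedd4l (0.878) and Mboat1 (0.859) for Tfrc, and Nfix (0.956), Pja2 (0.953) and Pde4b (0.927) for Cp.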

How the data were processed

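The deposited table gives log2 values of 35556 probesets on 24 arrays. The authors made these log2 values with RMA and Partek (version 2), per the submitters' processing notes. RMA usually corrects background, sets arrays to a common distribution and summarises probes. That the logarithm has base 2 was read from the values, which span 3.14 to 14.43. The chip definition was not given in the sources used here. No detection calls were used, so no gene is called absent, and the number of arrays limits the precision.

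Probesets were named from the platform annotation. 21218 carried 1 symbol, and the 1881 with several and 12457 with none were left out. The single-gene probeset with the highest mean was kept for each of 18820 genes. All tests used limma 3.58.1 (R 4.3.3) in 1 fit to all 24 arrays, with Benjamini-Hochberg adjustment over all genes. A gene was called at an adjusted p under 0.05 and a 2-fold difference. The fit was tested on simulated data. Groups follow the cell type in the labels. Levels carry the SD over 3 arrays, differences the SE of the fit.

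Genes named are the 8 members, the 2 highest and 2 lowest called genes of each list and comparison, and the 3 genes most like each member. A few list genes and markers outside this rule (Hamp, and single markers such as Flt3, Ngp, Col1a1, Dcn, Xist and Eif2s3y) were chosen after their values were seen. The members and lists were chosen with earlier results of these data known. Some genes of the lists were not analysed here. Lists of markers for astrocytes, neurons and erythroid cells had array means of 8.61, 8.74 and 8.12 or less in every group. Single markers stood well above these means. Slc1a3 averaged 12.64 in NSC, Gja1 12.16 in iPSC and 11.00 in ad-MG, and Stmn2 12.19 in iPSC and 10.11 in ad-MG. Alternatives were centring on the array median, a second quantile normalization, the compared groups alone, eBayes with trend, the mean of a gene's probesets, a filter on dim genes, a replicate block and leaving out each array. Replicate numbers did not pair the samples: correlations of same-numbered deviations ran from -0.261 to 0.252, and no pair of groups had all 3 over 0.1.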

Additional observations from a re-analysis of the deposited data

How the results depend on the processing

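Every count of members called kept within 1.5 times its value under all alternatives run, and so did every count over all genes. With the replicate block, 7 members and 4177 genes were called in iPS-MG against iPSC, as without it, and the block changed no other call. Leaving out 1 array gave 6 to 7 members in iPS-MG against iPSC and 4 to 5 in neo-MG against DC. Without the ad-MG arrays, an alternative chosen after seeing the data, 5 members stayed called in the myeloid types against the stem cells, with 3734 genes in place of 3559. Without the iPS-MG arrays, also chosen afterwards, 3 members were called in neo-MG against ad-MG. Fth1 lost its call in iPS-MG against iPSC under a second quantile normalization (0.90) and gained one in myeloid against stem cells with the mean of its probesets (1.14). The filter on dim genes left 12152 genes and all 8 members.

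Differences near 0, none of them called, turned sign. With arrays centred on their medians these were Cp in iPS-MG against neo-MG (0.0044), Slc11a1, Trf and Fth1 in neo-MG against ad-MG (0.0945, 0.0540 and 0.0662), Slc40a1 in neo-MG against bm-Mac (0.0416), Fth1 in neo-MG against p-Mac (0.0855) and Slc11a2 in NSC against iPSC (0.0777). With quantile normalization they were Cp in iPS-MG against neo-MG (0.0072), Fth1 in neo-MG against p-Mac (0.1007), Hmox1 and Fth1 in p-Mac against bm-Mac (0.0387 and -0.0085) and Slc11a2 in NSC against iPSC (0.0854). With the mean of probesets they were Fth1 in iPS-MG against neo-MG (0.0268) and in neo-MG against p-Mac (0.0902). Leaving out 1 array gave ranges across 0 for the same kind of value: Slc11a2 in NSC against iPSC (-0.0981 to 0.0569), Cp in iPS-MG against neo-MG (-0.0439 to 0.0301), Fth1 in iPS-MG against neo-MG (-0.027 to 0.0009), Trf in iPS-MG against neo-MG (-0.0283 to 0.0119), Fth1 in neo-MG against p-Mac (-0.0203 to 0.0332) and Fth1 in p-Mac against bm-Mac (-0.0001 to 0.0534). Centring moved the median of all genes by 0.147 in neo-MG against ad-MG, 0.117 in NSC against iPSC and 0.106 in iPS-MG against iPSC. The cause of these changes was not tested.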
